A study of Mus musculus with 2 samples.

Results

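The genes described here are 6 genes of reactive glia: Gfap, Vim, Serpina3n, Stat3, Cd44 and Osmr. They are 6 of the 32285 genes with a row in both UMI count tables, and they were matched by Ensembl identifier to their symbols. They were picked with their values in astrocytes of these libraries already known, above all those of Gfap and Serpina3n, so every difference between the libraries in these genes is a description and carries no test.

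Astrocytes answer damage in the brain with a change of state called reactivity. They enlarge and thicken the intermediate filament network of their processes, for which Gfap and Vim encode the filament proteins, and they secrete protease inhibitors and complement proteins. One known route to this state runs from cytokines of the interleukin-6 family through gp130-coupled receptors, of which the oncostatin M receptor Osmr is one, to the transcription factor Stat3. Serpina3n, a secreted serine protease inhibitor, is used as a marker of reactive astrocytes and, in several models of disease, of reactive oligodendrocytes. Cd44 is a surface receptor for the matrix polymer hyaluronan.

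To determine how cortical damage changes the thalamus, nuclei were sequenced from the thalamus of the operated side 21 days after a sham operation or a cortical ablation injury (CAI), the surgical removal of sensory and motor cortex. For each group, nuclei of 4 female C57BL/6J mice, 3 months old at operation, went in equal numbers into 1 library. The mice of a pool cannot be separated, so each group has 1 replicate, and no difference below has a replicate check. All intervals are at 95%, exact, and cover counting error only. Beside a count of 0, the share it allows is that of 3 counts in all nuclei, and it limits nuclei with a UMI, not nuclei that express the gene.

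The sham library held 16373 nuclei and the injury library 21777 nuclei after filtering, with medians of 7190 and 6810 UMIs (unique molecular identifiers, 1 per captured RNA molecule). Clusters were named from marker genes as astrocyte-like, oligodendrocyte-like and so on, and are called astrocytes and oligodendrocytes from here. Astrocytes numbered 209 in sham and 512 in injury, with medians of 1892 and 2549.5 UMIs, and oligodendrocytes 991 and 2302, with medians of 1539 and 1651.5 UMIs. The 12 astrocyte markers, none of them among the 6 genes, were all found in both libraries and summed to 13255 and 12966 CPM (UMIs of a gene relative to all UMIs of the class). The 10 oligodendrocyte markers were likewise all found in the oligodendrocytes of both libraries. The injury library also held 941 neurons in clusters with 3 sham nuclei. In astrocytes, Lhx2 and Emx2, which mark telencephalic astrocytes, had 0 UMIs in sham and 1 UMI each in injury. The libraries shared 101 barcodes, of which 2 sham and 5 injury nuclei were astrocytes, and 0 of those 7 nuclei had a Gfap UMI.

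Gfap lies on chromosome 11 from 102887336 to 102900912 on the minus strand of GRCm38. Stat3 is on the same chromosome and strand, from 100885098 to 100939540. Vim (chromosome 2, 13573927 to 13582826, plus strand) and Cd44 (chromosome 2, 102811141 to 102901665, minus strand) share another. Serpina3n spans 104406729 to 104414329 of chromosome 12 on the plus strand, and Osmr 6813577 to 6874969 of chromosome 15 on the minus strand. Gfap is overlapped over all its 13577 bases by Gm26668, a long noncoding RNA on the opposite strand, which was not analysed here. Stat3 shares 72 bases with Stat5a on the opposite strand, and Cd44 shares 107 bases with Gm23731, a small nuclear RNA on the opposite strand. Whether counting used the strand is not given in the sources used here, so the counts of Gfap, Stat3 and Cd44 are uncertain to that extent.

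The window around the RefSeq start of each gene, from 250 bases before it to 50 after it, was searched for the letters TTCNNNGAA, bound by Stat proteins, and TGANTCA, bound by AP-1 factors, on both strands (RefSeq, GRCm38.p6; all 6 genes had a window). Of the 6, 1 had a match to the first motif, against 8.30% of all 32851 windows, and 1 to the second, against 7.81%. The matches are shown because they fall at the starts of Gfap, which of the 6 genes had the most UMIs in injury astrocytes, and of Osmr, the cytokine receptor among them. Capitals mark the motif. In Gfap it runs from 2 bases before the start to 7 bases into the transcript (the shown bases are chr11:102897186-102897210), and in Osmr from base 4 to base 10 of the transcript (chr15:6874296-6874318), both on the minus strand.
Gfap: gggggtgcTTCCAGGAAgtcagggg
Osmr: cccgtagtTGATTCAtagctggg
The 250 bases upstream of the Gfap start, chr11:102897201-102897450 on the minus strand, are shown for the context of this match, which begins in their last 2 bases, in capitals.
Gfap upstream: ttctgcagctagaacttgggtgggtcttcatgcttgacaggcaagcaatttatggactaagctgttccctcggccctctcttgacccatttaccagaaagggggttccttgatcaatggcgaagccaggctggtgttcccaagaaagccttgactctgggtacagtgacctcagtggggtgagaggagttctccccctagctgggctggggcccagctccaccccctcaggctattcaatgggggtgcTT
No match says only that these letters are not in the window, and a match does not show that a factor binds.

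In astrocytes, all 6 genes were at a higher level in the injury library than in the sham library. For the filament gene Gfap, 4 UMIs were counted in 209 sham nuclei and 560 in 512 injury nuclei, which are 8.81 CPM (2.40 to 22.6) and 387 CPM (355 to 420). The log2 ratio of injury over sham was 5.46 (4.09 to 7.34). At least 1 Gfap UMI was found in 1.91% of sham astrocytes (4 nuclei, 0.524 to 4.83) and in 20.3% of injury astrocytes (104 nuclei, 16.9 to 24.1). The intervals of neither measure overlap.

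Gfap was unevenly spread over the injury astrocytes. No sham astrocyte had more than 1 Gfap UMI, whereas 17 injury astrocytes had 10 or more, and the highest had 25. The 408 injury nuclei without a Gfap UMI were 79.7% of the class. Of the 560 UMIs, 50.5% lay in 20 nuclei and 83.2% in 51 nuclei. Positive injury nuclei held 5.38 Gfap UMIs on average, against 1 in the positive sham nuclei.

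**Figure D1:**
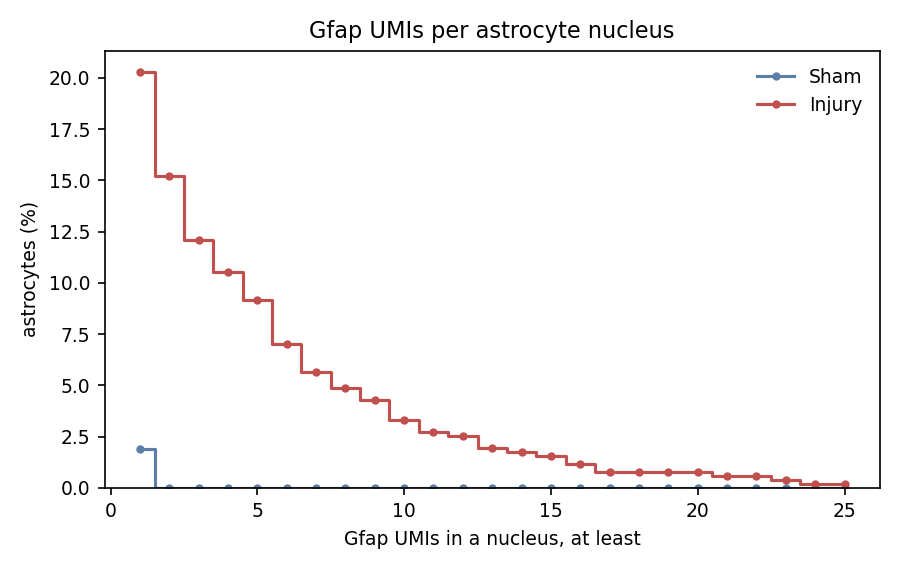
Share of astrocyte nuclei (y axis, percent) with at least the number of Gfap UMIs given on the x axis, for the sham (blue) and the injury library (red). The sham curve falls from 1.91% at 1 UMI to 0 at 2 UMIs, while the injury curve falls from 20.3% at 1 UMI and reaches 25 UMIs.

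Vim, which encodes the partner filament vimentin, had 1 UMI in sham and 19 in injury astrocytes, or 2.20 CPM (0.0558 to 12.3) and 13.1 CPM (7.90 to 20.5). Its ratio of 5.95 had an interval from 0.947 to 247, which includes 1. In all, 15 injury nuclei (2.93%, 1.65 to 4.79) and 1 sham nucleus had a Vim UMI. On the log2 scale the interval was -0.08 to 7.95, and -0.0068 to 8.02 with TMM factors, but 0.0098 to 8.04 with DESeq2 size factors, so whether it includes 0 depends on the scaling.

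Serpina3n had 2 UMIs in 1 sham nucleus and 59 UMIs in 29 injury nuclei. The levels were 4.41 CPM (0.534 to 15.9) and 40.7 CPM (31.02 to 52.6), a ratio of 9.25 (2.45 to 78.1). Among injury astrocytes, 5.66% had a Serpina3n UMI (3.83 to 8.03), against 0.478% in sham (0.0121 to 2.64). Serpina3n belongs to a family of close paralogs. Of the 10 family members with a row, Serpina3i had 4 UMIs in injury astrocytes and the other 8 had 0 UMIs in astrocytes and oligodendrocytes of both libraries. How reads shared by these paralogs were counted is uncertain, and so is the level of Serpina3n to that extent.

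Stat3 was the member found in most sham astrocytes. In sham, 28 nuclei held 31 Stat3 UMIs, and in injury 135 nuclei held 225, which gives 68.3 CPM (46.4 to 97.0) and 155 CPM (136 to 177), a ratio of 2.27 (1.56 to 3.43). The share of positive astrocytes was 13.4% (9.09 to 18.8) and 26.4% (22.6 to 30.4). Stat5a, the neighbour that shares 72 bases with it, had 1 and 32 UMIs.

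For the receptors, Cd44 had 0 UMIs in sham astrocytes, which allows a share of nuclei with a UMI of up to 1.44% (exact upper limit 1.75%), and 54 UMIs in 28 injury nuclei (37.3 CPM, 28.02 to 48.7). Against a floor of 3 UMIs in the sham library, its level was at least 5.64-fold higher in injury, and the exact lower limit of the ratio was 4.43. Osmr had 1 UMI in sham and 22 UMIs in 19 injury nuclei, with 2.20 CPM (0.0558 to 12.3) and 15.2 CPM (9.52 to 23.005) and a ratio of 6.90 (1.11 to 285). With classes set from marker UMIs alone its log2 ratio went from 2.79 to 1.33 (-0.75 to 4.49), which includes 0, and thinned to 3000 UMIs it was 1.22 (-1.51 to 6.63). Both receptors were therefore found in few injury astrocytes, 5.47% for Cd44 (3.66 to 7.81) and 3.71% for Osmr (2.25 to 5.73).

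All 6 members were at least 2-fold higher by the ratio with 0.5 UMI added to each sum. Of the 9410 genes with at least 20 UMIs in astrocytes, 452, or 4.8%, were. Since the members were chosen with these values known, nothing is read from the count of 6.

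**Figure D2:**
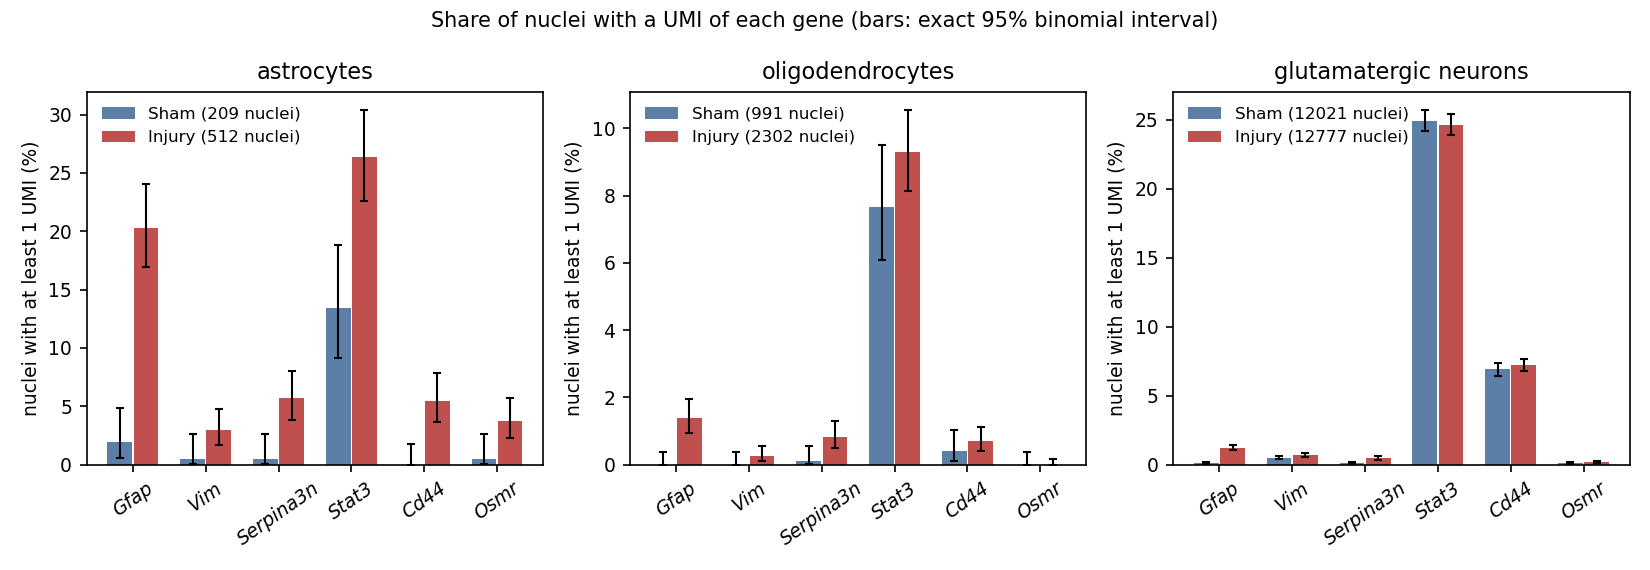
Share of nuclei with at least 1 UMI of each gene (y axis, percent, a different scale in each panel) in astrocytes, oligodendrocytes and glutamatergic neurons of the sham (blue) and injury (red) library, with exact binomial 95% intervals as bars. Gfap stands at 1.91% and 20.3% of astrocytes, 0% and 1.39% of oligodendrocytes, and 0.133% and 1.21% of glutamatergic neurons.

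Injury astrocytes were deeper than sham astrocytes, and deeper nuclei show more genes, so each nucleus was also thinned to 1000 UMIs, which left out 15 sham and 29 injury astrocytes. Gfap was then found in 0.515% of 194 sham (0.0130 to 2.84) and 15.3% of 483 injury astrocytes (12.2 to 18.8). Serpina3n was in 0.515% (0.0130 to 2.84) and 3.11% (1.75 to 5.07), Cd44 in 0% (0 to 1.88) and 2.07% (0.997 to 3.77), and Osmr in 0% (0 to 1.88) and 2.28% (1.14 to 4.04). For Stat3 the shares came to 6.70% (3.62 to 11.2) and 10.97% (8.33 to 14.1). Vim was in 0% (0 to 1.88) and 0.414% (0.0502 to 1.49). Of the 6 genes, the intervals of the libraries were apart for Gfap alone and overlapped for the others. At 3000 UMIs, with 35 sham and 195 injury astrocytes left, the shares were 0% and 29.7% for Gfap, 5.71% and 38.5% for Stat3, with intervals apart for both genes. Cd44 was in 0% (0 to 10.003) and 9.23% (5.56 to 14.2), Serpina3n in 2.86% (0.0723 to 14.9) and 9.74% (5.97 to 14.8), Osmr in 2.86% and 6.15%, and Vim in 2.86% and 4.10%, with overlapping intervals for each. The log2 ratio of Serpina3n was 1.81 (-0.14 to 4.90) at 3000 UMIs and 2.68 (-0.0023 to 8.07) at 1000 UMIs, both with 0 in the interval.

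When the astrocytes were clustered on their own, with the 6 genes and the listed genes kept out of the genes used for clustering, 4 sub-clusters were formed. Most of the signal lay in 1 of them. It held 87 injury nuclei and 0 sham nuclei, and it was singled out after its values were seen, as the sub-cluster with most Gfap UMIs. With the libraries integrated, few sham nuclei were not particular to it. Of the 209 sham astrocytes 199 lay in 1 sub-cluster, with 246 injury nuclei, another held 5 sham and 162 injury nuclei, and the last 5 sham and 17 injury nuclei, all called doublets. The genes that led it over the other astrocytes were Ggt5, Gfap, A2m, Slc1a5, Serpina3n, Hpgd, Aspg, Cd44, Sulf1 and Asap3. A group made of nuclei from 1 library may be that library and not a type of cell, so the values that follow are a description. Clustering without integration of the libraries gave a matching sub-cluster of 92 nuclei, all from the injury library, with 82 nuclei in common. The other sub-clusters of that clustering held 174 sham and 263 injury nuclei, 30 and 140, and 5 and 17.

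The 87 nuclei were 17.0% of the injury astrocytes and carried 490 of their 560 Gfap UMIs (87.5%). They also carried 56 of 59 Serpina3n UMIs, 48 of 54 Cd44 UMIs, 19 of 22 Osmr UMIs and 13 of 19 Vim UMIs. For Stat3 the part was smaller, 127 of 225 UMIs (56.4%). A Gfap UMI was found in 71 of the 87 nuclei (81.6%, 71.9 to 89.1) and a Stat3 UMI in 54 (62.1%, 51.03 to 72.3). Serpina3n was found in 27 of the 87 (31.03%, 21.5 to 41.9) and Cd44 in 22 (25.3%, 16.6 to 35.7).

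Outside it, the ratio of the 425 other injury astrocytes to sham had a log2 interval that includes 0 for Serpina3n, Stat3, Vim and Osmr, and these intervals are wide. Of the 425, only 246 shared a sub-cluster with most of the sham nuclei when the libraries were integrated. Without integration, 263 injury nuclei lay with 174 sham nuclei, and 140 with 30. Serpina3n had 3 UMIs in them (2.73 CPM, 0.564 to 7.99), against 2 UMIs and 4.41 CPM in sham, a log2 ratio of -0.69 (-3.82 to 2.89). Stat3 was at 89.3 CPM (72.5 to 109) against 68.3 in sham, a log2 ratio of 0.39 (-0.21 to 1.02). Vim had 6 UMIs in these 425 nuclei (log2 1.31, -1.73 to 6.83), Osmr 3 UMIs (0.31, -3.33 to 6.02) and Cd44 6 UMIs against 0 in sham, where the log2 interval runs from -1.04 with no upper limit. These values do not show that the nuclei were like those of sham. Gfap was the exception, with 70 UMIs in 33 of the 425 nuclei and 63.8 CPM (49.7 to 80.6), a log2 ratio over sham of 2.85 (1.43 to 4.77).

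**Figure D3:**
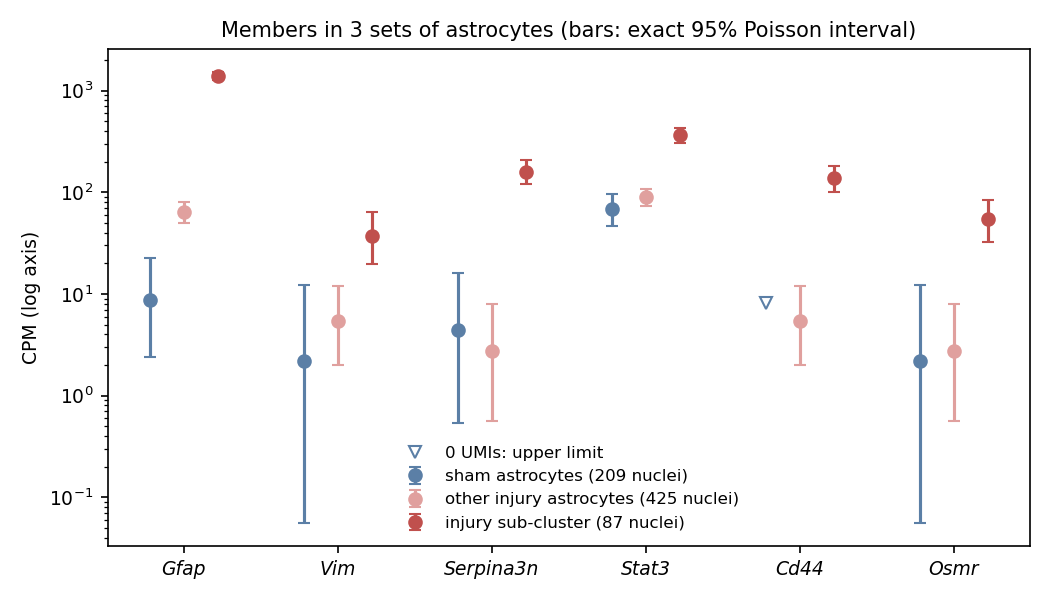
Level of each gene (y axis, CPM on a log axis) in sham astrocytes, in the injury astrocytes outside the sub-cluster and in the injury sub-cluster, with exact Poisson 95% intervals as bars and an open triangle at the upper limit where 0 UMIs were counted. The sub-cluster reaches 1399 CPM for Gfap and 160 CPM for Serpina3n, while the other injury astrocytes are at 63.8 and 2.73 CPM.

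Genes of astrocyte physiology that are not members also stood apart in the 87 nuclei. Aqp4, the water channel of astrocyte endfeet, was at 857 CPM in them, 226 CPM in the other injury astrocytes and 205 CPM in sham. The glutamate transporter gene Slc1a3 was at 660, 1438 and 1446 CPM, whereas Slc1a2, the other main glutamate transporter, was at 3840.5, 3775 and 3389 CPM. The 10 oligodendrocyte markers summed to 123 CPM there and 681 CPM in the other injury astrocytes, and the 8 microglial markers to 45.7 and 83.8 CPM. Higher in the sub-cluster were the sums of the 6 mural cell markers, at 257 and 123 CPM and with Vtn and Kcnj8 at 0 UMIs in all injury astrocytes, and of the 6 oligodendrocyte precursor markers, at 99.9 and 27.3 CPM with 1 of the 6 at 0 in each set. Also higher there were the sums of the 5 markers of differentiating oligodendrocytes, at 702 and 461 CPM with 2 of the 5 at 0 in each set, of the 3 tanycyte markers, at 48.5 and 19.1 CPM with 2 and 1 at 0, and of the 6 telencephalic neuron markers, at 42.8 and 32.8 CPM with 4 and 2 at 0. The 4 T cell markers had 1 and 3 UMIs, and the sums of the remaining lists were lower in the sub-cluster. The part of any of these cells in the results was not tested.

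Within the injury library, nuclei with a Gfap UMI were compared with nuclei without. Serpina3n was found in 28 of 104 Gfap-positive astrocytes (26.9%, 18.7 to 36.5) and in 1 of 408 Gfap-negative astrocytes (0.245%, 0.00621 to 1.36). Thus 28 of the 29 Serpina3n-positive astrocytes, or 96.6%, also had a Gfap UMI. The same held for the 19 Osmr-positive nuclei, of which 18 had a Gfap UMI, and less completely for Cd44 (22 of 28) and Vim (11 of 15).

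Stat3 was found on both sides. It was in 55.8% of Gfap-positive nuclei (58 nuclei, 45.7 to 65.5) and 18.9% of Gfap-negative nuclei (77 nuclei, 15.2 to 23.01). Its level in CPM was higher in the positive nuclei by a log2 ratio of 1.94 (1.54 to 2.33). In all, 79 injury astrocytes (15.4%) and 3 sham astrocytes (1.44%) held UMIs of 2 or more of the 6 genes, and 1 injury nucleus held all 6.

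Gfap-positive nuclei were deeper, with a median of 3349 UMIs against 2401, and the median gene found in at least 5% of injury astrocytes was itself 3.98 percentage points more frequent in them. After thinning to 3000 UMIs, which left 58 positive and 137 negative nuclei, this background was 0.0629 points over 7244 genes. Serpina3n was then in 32.8% of positive (19 nuclei, 21.0 to 46.3) and 0% of negative nuclei (0 to 2.66). Stat3 was in 60.3% and 29.2%, Cd44 in 24.1% and 2.92%, Osmr in 19.0% and 0.730%, and Vim in 12.1% and 0.730%. Thinned to 1000 UMIs, Serpina3n was in 16.2% and 0.733%, and Osmr in 6.76% and 1.47%. Of the 7244 genes compared at 3000 UMIs, 15 had a larger difference than Serpina3n, 20 than Stat3, 88 than Cd44, 145 than Osmr and 476 than Vim, which was itself in too few nuclei to be among the genes compared. Since the members were picked with their astrocyte values known, nothing is read from these ranks.

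**Figure D4:**
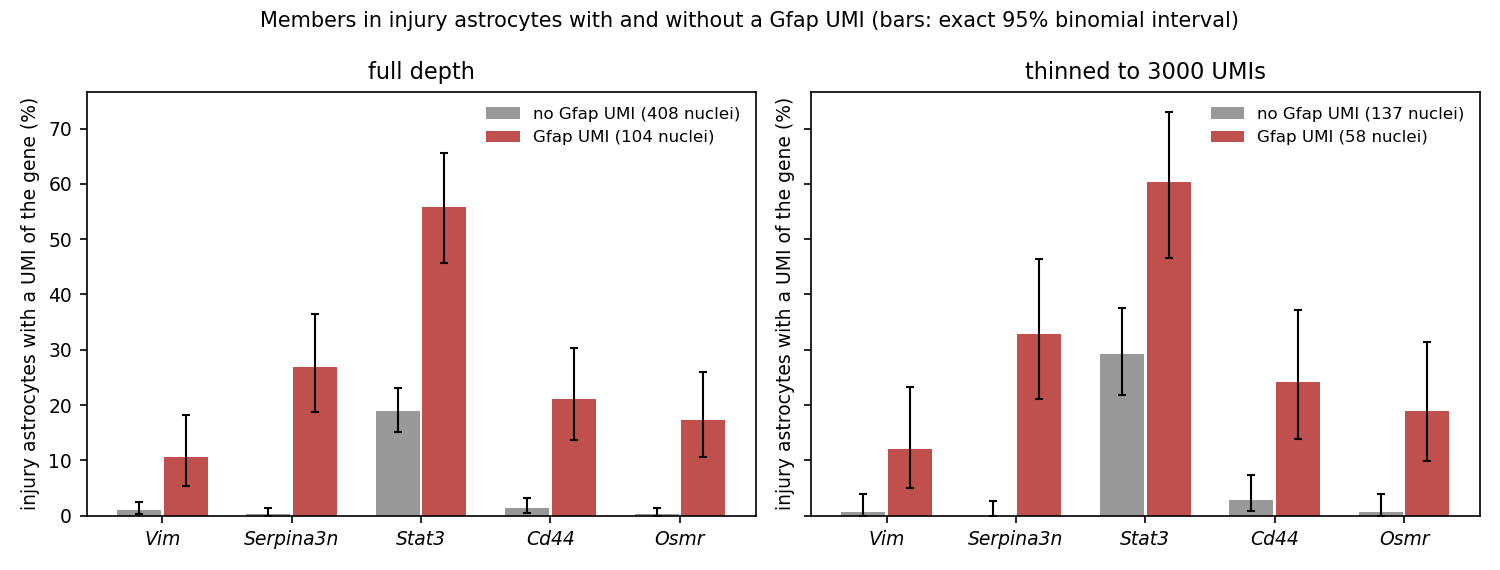
Share of injury astrocytes with a UMI of each gene (y axis, percent) among nuclei with (red) and without (grey) a Gfap UMI, at full depth on the left and thinned to 3000 UMIs on the right, with exact binomial 95% intervals as bars. Serpina3n stands at 26.9% and 0.245% at full depth and at 32.8% and 0% after thinning.

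Of the 28 nuclei with both genes, 27 lay in the sub-cluster. Inside it, Serpina3n was in 27 of 71 Gfap-positive and 0 of 16 Gfap-negative nuclei, whereas outside it Serpina3n was in 1 of 33 Gfap-positive (3.03%, 0.0767 to 15.8) and 1 of 392 Gfap-negative nuclei. Outside it Cd44 was in 0 of 33 and 6 of 392 nuclei, Vim in 2 and 4, and Osmr in 2 and 0. Stat3 there was in 36.4% (20.4 to 54.9) and 17.6% (14.0 to 21.7), whose intervals overlap. The log2 ratio of its CPM in Gfap-positive over Gfap-negative nuclei was 0.94 (0.04 to 1.74). The interval of this ratio also lay above 0 for Serpina3n (2 and 1 UMIs) and Osmr (3 and 0 UMIs), and it included 0 for Vim and Cd44. It takes each UMI as independent, while both Serpina3n UMIs came from 1 nucleus and the Osmr UMIs from 2. By nucleus, the intervals of the shares overlap for Serpina3n and for Osmr, so nothing is read from their ratios.

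The 8 genes with the largest difference between thinned nuclei with and without Gfap were Nfasc, A2m, Slc39a14, Sbno2, Cadps, Rhoj, Asap3 and Enox1. A2m, a broad protease inhibitor of the acute phase, was in 82.8% of Gfap-positive and 24.8% of Gfap-negative nuclei. Slc39a14, a zinc and manganese transporter, was in 77.6% and 25.5%, and Sbno2, a transcriptional regulator, in 55.2% and 5.11%. Nfasc, a cell adhesion gene, led with 84.5% and 25.5%. The other 4 differed by 46.3 to 48.9 points, and all 8 were also more frequent in Gfap-positive nuclei thinned to 1000 UMIs.

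The 4 genes at the other end were Gria1, Gm12239, Ptch1 and Glul. Gria1, an AMPA receptor subunit, was in 43.1% of Gfap-positive and 83.9% of Gfap-negative nuclei. The hedgehog receptor gene Ptch1 was in 34.5% and 75.2%, and Glul, which encodes glutamine synthetase, in 20.7% and 60.6%. In sham astrocytes at full depth, Gria1 was in 91.9% and Ptch1 in 73.7% of nuclei. These 12 genes were taken for the size of their difference, so their values are a description.

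In oligodendrocytes, the members other than Stat3 were at low levels. Gfap had 0 UMIs in 991 sham nuclei, which allows a share of up to 0.303%, and 33 UMIs in 32 of 2302 injury nuclei (1.39%, 0.953 to 1.96), or 7.76 CPM (5.34 to 10.9). Against the floor of 3 UMIs it was at least 4.42-fold higher in injury, and the exact lower limit of the ratio was 3.40. Serpina3n had 1 UMI in sham and 20 UMIs in 19 injury nuclei (0.825%, 0.498 to 1.29), with 0.585 CPM (0.0148 to 3.26) and 4.70 CPM (2.87 to 7.26) and a ratio of 8.04 (1.29 to 333). No oligodendrocyte had more than 2 UMIs of either gene.

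Neurons, which should lack Gfap, give the share to set beside these. In glutamatergic neurons, with a median of 7999 UMIs in injury against 1651.5 in oligodendrocytes, Gfap was found in 0.133% of sham (0.0761 to 0.216) and 1.21% of injury nuclei (1.02 to 1.41), and in GABAergic neurons, with a median of 6231 UMIs, in 0.102% and 1.30% (0.940 to 1.76). Per 1000 nuclei of the injury library there were 14.3 Gfap UMIs in oligodendrocytes (9.87 to 20.1), 12.6 in glutamatergic neurons (10.7 to 14.7) and 13.03 in GABAergic neurons (9.39 to 17.6). The 425 astrocytes outside the sub-cluster had 165. By nucleus, the intervals of oligodendrocytes and neurons overlap, although the nuclei differ in depth. Relative to all UMIs, Gfap was at 7.76 CPM in injury oligodendrocytes, 1.35 CPM (1.15 to 1.57) in glutamatergic and 1.81 CPM (1.31 to 2.45) in GABAergic neurons. When each nucleus was thinned to 1000 UMIs the share with Gfap was 0.937% in injury oligodendrocytes (0.556 to 1.48), 0.181% in glutamatergic (0.114 to 0.271) and 0.311% in GABAergic neurons (0.149 to 0.571). Compared with these neurons alone, oligodendrocytes were highest on each of these scales. Their interval was apart from that of glutamatergic neurons in CPM and after this thinning, and overlapped that of GABAergic neurons after this thinning. Thinned to 3000 UMIs, the shares were 0.909% (0.110 to 3.25), 0.436% (0.325 to 0.571) and 0.629% (0.373 to 0.993), with overlapping intervals. Injury microglia, with 3 Gfap UMIs, were at 17.6 per 1000 nuclei (3.64 to 51.6) and 8.47 CPM (1.75 to 24.7). If free RNA has the summed profile of all nuclei of a library, the neuronal genes Rbfox3, Snap25 and Syt1 bound its part at 7.77% of all UMIs of injury and 7.93% of sham oligodendrocytes, 5.46% and 6.21% in astrocytes, 23.7% and 20.1% in oligodendrocyte precursors, and 37.5% and 72.2% in microglia. With that part subtracted, the log2 ratio of Serpina3n in oligodendrocytes was 3.04. These bounds are over all genes, and the part of free RNA in the Gfap UMIs was not measured.

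Proportions between genes are given as a description, with Aqp4 taken as the partner after its values were seen. Gfap made up 50.5% of the Gfap and Aqp4 UMIs of injury astrocytes (47.6 to 53.5), 52.4% of those of oligodendrocytes (39.4 to 65.1), 51.9% of those of GABAergic neurons (40.5 to 63.1) and 43.4% of those of glutamatergic neurons (38.3 to 48.6). Serpina3n made up 9.53% of the Serpina3n and Gfap UMIs of injury astrocytes (7.34 to 12.1), and 37.7% in oligodendrocytes (24.8 to 52.1), 27.1% in glutamatergic (21.4 to 33.5) and 43.2% in GABAergic neurons (31.8 to 55.3). The source of these UMIs was not tested.

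By nucleus, the Serpina3n of oligodendrocytes was within the interval of that of GABAergic neurons. There were 8.69 Serpina3n UMIs per 1000 oligodendrocytes (5.31 to 13.4) in the injury library, 4.70 per 1000 glutamatergic neurons (3.58 to 6.04) and 9.93 per 1000 GABAergic neurons (6.79 to 14.01). Thinned to 1000 UMIs, its share in the injury library was 0.521% of oligodendrocytes (0.2499 to 0.955), 0.0628% of glutamatergic (0.0271 to 0.124) and 0.124% of GABAergic neurons (0.0339 to 0.318). Thinned to 3000 UMIs, it was 0% of the 220 oligodendrocytes left (0 to 1.66), 0.168% of glutamatergic (0.102 to 0.259) and 0.385% of GABAergic neurons (0.192 to 0.687). The order of the classes thus differed between the 2 depths. In the sham library there were 7.15 per 1000 GABAergic neurons (3.91 to 11.99) and, from 2 UMIs, 9.57 per 1000 astrocytes (1.16 to 34.6), so these intervals overlap. Sham glutamatergic neurons had 1.33 per 1000 (0.761 to 2.16). In CPM, the log2 ratio of Serpina3n was 1.77 (0.96 to 2.67) in glutamatergic and 0.47 (-0.48 to 1.49) in GABAergic neurons. Complement gene C4b, given for comparison as a reactive gene shared by both glial classes, had 46.5 UMIs per 1000 injury oligodendrocytes (38.1 to 56.2), 2.74 per 1000 glutamatergic neurons (1.91 to 3.81) and 1.24 per 1000 GABAergic neurons (0.338 to 3.18), and within oligodendrocytes it went from 8 to 107 UMIs.

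**Figure D5:**
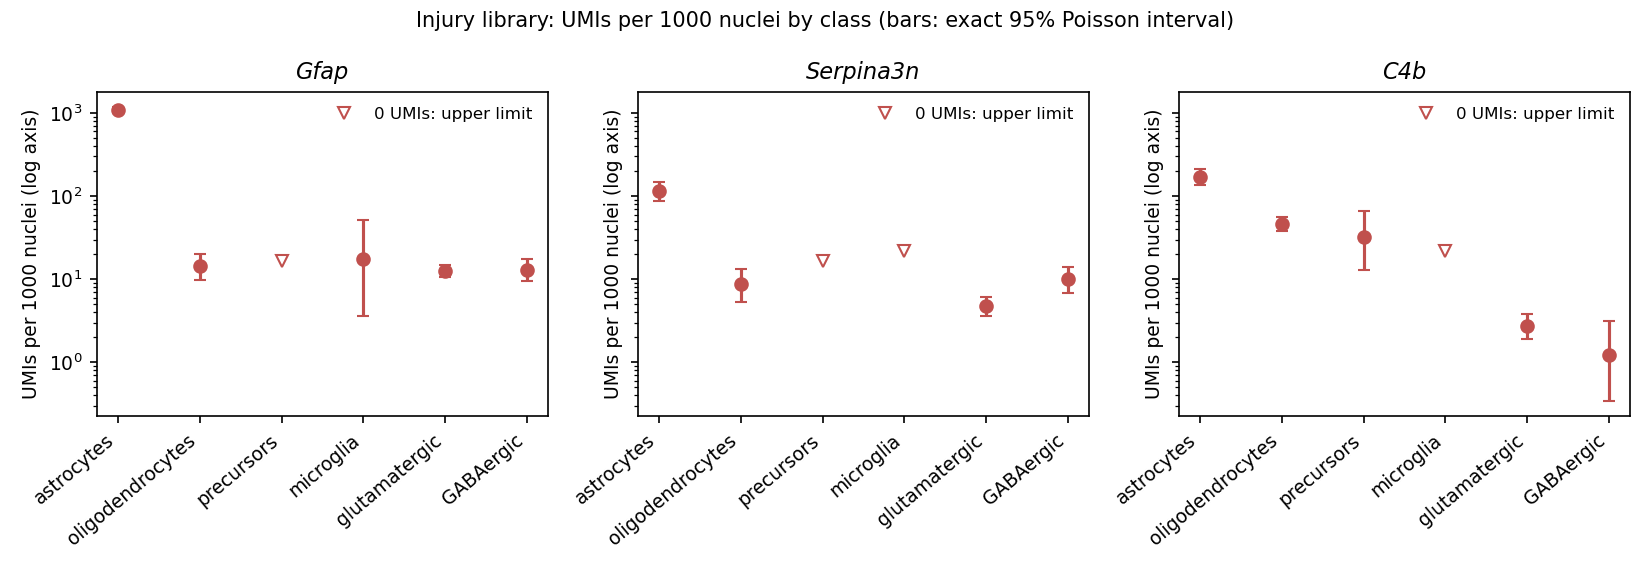
UMIs per 1000 nuclei (y axis, log axis) of Gfap, Serpina3n and C4b in 6 classes of the injury library, with exact Poisson 95% intervals as bars and an open triangle at the upper limit where 0 UMIs were counted. Gfap is at 1094 in astrocytes and at 12.6 to 17.6 in the other classes with any UMI, and C4b is at 46.5 in oligodendrocytes and 2.74 in glutamatergic neurons.

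The other members had intervals that include 0 or too few UMIs for a ratio in oligodendrocytes. Stat3, with 83 and 246 UMIs, stood at 48.5 CPM (38.7 to 60.2) in sham and 57.9 CPM (50.8 to 65.6) in injury, and the log2 ratio was 0.25 (-0.11 to 0.63). For Cd44, with 4 and 16 UMIs, it was 0.69 (-0.95 to 2.72). Vim had 0 and 6 UMIs, and Osmr 0 in both libraries, which allows a share of up to 0.303% in sham and 0.130% in injury. Of the 6 members, 4 had at least 20 UMIs in oligodendrocytes and 2 of these, Gfap and Serpina3n, were at least 2-fold higher, beside 2.43% of 11956 genes. Gfap and Serpina3n passed this filter almost wholly through their injury UMIs. The members were also chosen with earlier results of these data known, so nothing is read from this count. Among 7 oligodendrocyte sub-clusters the most Gfap UMIs in any was 10 of 33, reached in 2 sub-clusters with 28.6% and 21.4% of the injury nuclei. The latter also held 9 of the 20 Serpina3n UMIs. Without integration of the libraries, 1 of 5 sub-clusters, with 27.9% of the injury nuclei, held 10 of the 20 Serpina3n and 13 of the 33 Gfap UMIs. In astrocytes, 87.5% of the Gfap UMIs lay in 16.99% of the injury nuclei.

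In the other classes the members showed their own distributions. Stat3 was present in every class, at 36.1 and 35.1 CPM in sham and injury glutamatergic neurons, 36.2 and 36.5 CPM in GABAergic neurons, and 68.1 (47.4 to 94.7) and 56.6 CPM (42.0 to 74.6) in oligodendrocyte precursors. Cd44 in glutamatergic neurons was at 11.4 CPM in both libraries and was highest in a cluster led by Ccdc192 and Lypd6b, at 43.5 and 44.1 CPM. Oligodendrocyte precursors had 0 UMIs of Gfap, Serpina3n and Osmr in both libraries. Microglia of the injury library (170 nuclei) had 3 Gfap UMIs, 6 Cd44 UMIs and 34 Stat3 UMIs, and 0 of Serpina3n and Osmr. Sham microglia, with 32 nuclei of which 46.9% were called doublets, are too few for a comparison. A cluster of low UMI counts led by Atp13a5, Abcc9 and Flt1, which was left unnamed, had 1 and 6 Osmr UMIs, or 4.54 and 13.1 CPM.

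Across the 6 classes and both libraries (12 points, which share libraries and differ in depth), the genes whose log2 CPM was most alike to that of Gfap were Gm26917 (Pearson r = 0.906), Serpina3n (0.895), Fxyd1 (0.891), Azin1 (0.874) and Aqp4 (0.874), of 5937 genes. Those most alike to Serpina3n were Mrps6 (0.894), Gramd1b (0.889), 4932438H23Rik (0.886), Aldh1l1 (0.872) and Arhgef12 (0.872), of 9457 genes. The list for Gfap took genes with at least 50 UMIs in astrocytes, and that for Serpina3n genes with at least 50 UMIs in oligodendrocytes. Gfap, with 0 and 33 UMIs there, was therefore not compared in the list for Serpina3n. Its r with Serpina3n, 0.895, is above that of Mrps6. Serpina3n stood second in the list for Gfap. Both genes were picked with their astrocyte values known and were highest in injury astrocytes, so nothing is read from this rank. Of these, Aqp4 and Aldh1l1 are astrocyte markers.

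The wider list of 45 reactive astrocyte genes, which includes the 6 members, had 17 genes with at least 20 UMIs over both libraries in astrocytes, and 16 of them were higher in injury. The injury class held more UMIs, and genes such as Vim, Osmr, Cd44, Cp and Serpina3n passed this filter almost wholly through their injury UMIs, so the filter itself favours higher genes, and the counts here and in oligodendrocytes are no support for a rise of the list. Their median log2 ratio was 2.03, or 1.496 with genes at 0 UMIs in sham set to their lower bound, against -0.04 over all 9410 genes, of which 4350 were higher. The median was 0.82 with no filter on low counts (23 of 36 higher), 1.13 with 2 UMIs added in place of 0.5, and 0.80 without the Gfap-rich sub-cluster (6 of 9 higher). Without the members, 10 of 11 were higher, with a median of 1.36. Fkbp5, a glucocorticoid-responsive chaperone gene, went from 4 to 118 UMIs (log2 3.21, 1.81 to 5.11) and C4b from 4 to 87 (2.77, 1.36 to 4.68). Cp, which encodes the copper-binding ferroxidase ceruloplasmin, had 0 and 25 UMIs, at least 2.61-fold higher against the floor of 3 UMIs in sham (exact lower limit 0.98 on the log2 scale), and Id3 was the 1 lower gene, at 72.7 and 62.8 CPM. In oligodendrocytes 10 of 11 list genes were higher, with a median of 0.56 (0.13 thinned to 1000 UMIs and 0.27 with no filter), beside 5495 of all 11956 genes, and without the members 6 of 7, with a median of 0.38. Fkbp5 was at 35.1 and 112 CPM there, and Cp at 18.7 and 11.1 CPM.

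Of 26 genes of gp130 and Stat3 signalling, 15 were counted in astrocytes. Of these 15 genes, 11 were higher and 4 lower, with a median log2 ratio of 0.26, and 3 were at least 2-fold higher, beside 4350 of 9410 genes higher and 4.8% at least 2-fold higher. These 3 were Stat3, Osmr and Stat5a (1 and 32 UMIs, log2 3.33, 0.74 to 8.67), of which Stat5a overlaps Stat3. The kinase gene Jak2 was at 74.9 and 53.2 CPM, and Pias3, an inhibitor of Stat3, at 24.2 and 14.5 CPM, both with an interval of the ratio that includes 1. In oligodendrocytes 0 of 15 reached 2-fold and the median was 0.18. There, Ptpn11, the gene of the phosphatase Shp2, was at 175 and 272 CPM (log2 0.63, 0.45 to 0.82). The genes for Cntfr, Jak1 and Il11ra1 were at 0.35 to 0.44 on the log2 scale, and Tyk2 and Stat5b at -0.28 and -0.24, all with intervals that include 0.

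The filament list had 5 counted genes in astrocytes: Gfap and Vim were higher, and 3 were lower, among them Plec (28.6 and 24.2 CPM) and Lmna (19.8 and 17.96 CPM), with a median of -0.09 for the list. In oligodendrocytes 4 of 9 were higher, with a median of -0.12. Plec had 9 and 42 UMIs and Lmna 11 and 45, while the neurofilament genes Ina and Nefm had log2 ratios of -0.48 and -0.47, all with intervals that include 0.

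Among ligands and partners of Cd44, Vcan, a hyaluronan-binding proteoglycan, had 3 and 32 UMIs in astrocytes (log2 1.74, 0.06 to 4.09), whereas the related Bcan was at 469 and 379 CPM (-0.31, -0.54 to -0.07) and Ncan at 68.3 and 65.6 CPM. The 6 counted genes were split, 3 higher and 3 lower, with a median of 0.06. In oligodendrocytes 5 of 6 were higher, with a median of 0.57 on few UMIs, such as 2 and 18 for Ncan. Over all genes counted there, 5495 of 11956 were higher, with a median of -0.04. Ncan passed the filter on low counts almost wholly through its injury UMIs. This filter favours higher genes, as for the reactive astrocyte list, so the count is no support for a rise of the Cd44 ligands and partners. Ezr, a linker of Cd44 to the cytoskeleton, was at 13.2 and 15.9 CPM in astrocytes.

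Genes described as raised in disease-associated oligodendrocytes gave 16 of 20 higher in oligodendrocytes, with a median of 0.38, against -0.04 over all genes, and 6 at least 2-fold higher, beside 5495 of 11956 genes higher and 2.43% at least 2-fold higher. Among them, C4b (log2 2.43, 1.40 to 3.68), Plin4 (2.39, 1.69 to 3.17) and B2m (2 and 23 UMIs) stood beside Serpina3n, while Klk6 was at 19.3 and 15.3 CPM. Serpina3n and B2m passed the filter of 20 UMIs almost wholly through their injury UMIs. As for the reactive astrocyte list, this filter favours higher genes, so the counts are no support for a rise of the list. In astrocytes 9 of 13 were higher, with a median of 0.58. Lower there were Apoe, at 740 and 479 CPM (-0.63, -0.82 to -0.44), and Il33, at 74.9 and 58.7 CPM. Of the 5 telencephalic astrocyte genes, Mfge8 and Lef1 were counted in astrocytes, at 35.3 and 19.3 CPM and at 26.4 and 13.8 CPM, and Lef1 in oligodendrocytes, at 19.9 and 20.7 CPM.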

How the data were processed

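The members and lists were chosen with earlier results of these data known. Per group, the authors mixed nuclei of 4 mice, sorted them by propidium iodide stain, prepared 10x 3′ libraries and counted UMIs with Cell Ranger 6.0.2 against GRCm38 (mm10). The deposited tables hold raw counts per gene and barcode, 137850696 UMIs in sham and 180106314 in injury. Introns, strand and annotation release are not given in the sources used here. GENCODE M21 gave symbols to 32235 of 32285 rows.

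Nuclei over 2% mitochondrial UMIs, under 200 genes or over 7500 genes were removed, as the study states. Libraries were integrated and clustered in Seurat 5.3.0 (1981 features, 30 components, resolution 0.5), with list genes kept out of the features. Clusters were named from markers, and those with over 50% called doublets (scanpy 1.11.5 Scrublet, 0.8% per 1000 nuclei) were set apart. Other doublets were kept, as the study names no removal. Several naming limits were set after the data were seen, and a difference from the study may come from these rebuilt names.

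UMIs were summed per class and scaled to its total (CPM). Intervals are exact Poisson (CPM) and Clopper-Pearson (shares, ratios). List medians use 0.5 UMI added and genes with at least 20 UMIs. With 1 library a group no test was run. Named genes were the members, from each list up to 4 largest rises and 2 largest falls, the 5 genes most alike to Gfap and to Serpina3n, and the 8 largest and 4 smallest differences between astrocytes with and without Gfap. C4b, Aqp4, Slc1a2, Slc1a3 and the cluster markers were added after their values were seen. Some genes the rule names are not reported here. Ratios, their intervals and thinning were tested on simulated data. Scaling factors came from edgeR 4.0.16 and DESeq2 1.42.0.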

Additional observations from a re-analysis of the deposited data

Results flagged for a closer look

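Nuclei set apart as mixed were not used in the comparisons. Among them, a cluster with astrocyte markers, all of whose nuclei were called doublets, had 0 Gfap UMIs in 28 sham nuclei and 84 Gfap UMIs in 22 of 110 injury nuclei, or 66.0 CPM (52.6 to 81.7), above the upper limit of 13.6 CPM in the sham nuclei of this cluster. It is given here because it is signal in nuclei outside the comparisons.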

How the results depend on the processing

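Of 153 values recomputed under other settings, 142 stayed within the interval of the value reported (a count of genes, within 1.5 times it), 10 moved out of it and 1 reversed. Other clusterings, removal of called doublets, classes from marker UMIs alone, TMM or DESeq2 scaling, subtraction of free RNA and removal of nuclei with telencephalic genes moved none of them past that interval, but Osmr in astrocytes fell to a log2 ratio of 1.33 (-0.75 to 4.49) with classes from marker UMIs alone. The other clusterings again gave 209 and 512 astrocytes and the same log2 ratios there, so for astrocytes they are no check. TMM and DESeq2 scaling shift all log2 ratios of a class by 1 constant. A value that stayed may itself have an interval with 0, such as Serpina3n in astrocytes at 3000 UMIs (1.81, -0.14 to 4.90). The count of 142 is therefore no measure of robustness. Added after seeing the data were thinning to 1000 UMIs, leaving out shared barcodes and leaving out the Gfap-rich sub-cluster. Without that sub-cluster the log2 ratio of Gfap in astrocytes was 2.85, that of Serpina3n reversed to -0.69 on 3 and 2 UMIs, the share of injury astrocytes with Gfap was 7.76% and the share of Gfap-positive nuclei with Serpina3n 3.03%. The share with Gfap was 29.7% thinned to 3000 UMIs, 15.3% thinned to 1000 UMIs and 15.2% where 2 UMIs were required (0% in sham). Co-detection of Serpina3n was 16.2% thinned to 1000 UMIs. Stat3 moved to 3.35 in astrocytes and -0.24 in oligodendrocytes thinned to 3000 UMIs, on 2 sham UMIs in astrocytes, and to 0.39 without the sub-cluster. No ratio was recomputed where the sham library had 0 UMIs. No paired analysis was possible because there was 1 library in each group. With 1 pool a group, the mice, the dissection and the library cannot be told apart from the injury, and low sham counts limit the ratios of the members other than Stat3.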
